A study of Mus musculus with 7 samples.

Results

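The genes described here move calcium into, through and out of cells. They are 10 genes chosen by name out of 25700 counted, namely Stim1, Orai1, Itpr3, Atp2a2, Atp2b1, Slc24a4, Slc8a1, Trpm7, Calb1 and S100g, and each was found once among the counted Ensembl genes. RNA was sequenced from the dental epithelium of lower incisors of newborn (PN0) mouse pups. There were 4 pups called K14;Nogo-A (replicates 1, 2, 7 and 10), whose genotype was K14cre cre/+; Nogo-A fl/fl and in which the recombinase made from a keratin 14 promoter deletes Nogo-A in epithelium, and 3 wild-type pups (replicates 3, 8 and 9). No group carried the recombinase alone, so its own effect and that of the deletion cannot be told apart. The epithelium of both incisors of a pup was pooled into 1 library, and the genotypes and replicate numbers come from the sample labels. All pups were of the same age, and the labels give neither strain nor sex. The question was whether deleting Nogo-A in the dental epithelium alters gene expression there.

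Calcium is pumped into the endoplasmic reticulum (ER), released from it through channels that respond to inositol trisphosphate (IP3), and replaced from outside when the store runs low, which is called store-operated entry. Cytosolic calcium is held low by pumps and exchangers in the plasma membrane and by proteins that bind it. Ameloblasts, the epithelial cells that make enamel, carry much calcium to the mineral. Most of it is laid down at the maturation stage, which follows the secretory stage in which the protein matrix is made, and human mutations in STIM1, ORAI1 and SLC24A4 cause enamel defects.

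The libraries held between 20929207 and 41219439 counts. Rtn4, the gene of Nogo-A and of shorter proteins of the same family that the counts do not separate, had 327 ± 21.3 CPM (counts scaled to library size by the TMM method; SD, n = 4) in the K14;Nogo-A pups, against 301 ± 39.1 CPM (SD, n = 3) in the wild-type pups. The label of dental epithelium was checked on marker lists. All 10 epithelial markers were tested and summed to 7222 to 8503 CPM in K14;Nogo-A and 5355 to 8510 CPM in wild-type. The 14 mesenchyme markers, which epithelium should hold at low levels, summed to 11149 to 33144 CPM in K14;Nogo-A and 26308 to 41168 CPM in wild-type, and their mean log2 CPM was 7.70 to 8.09 against 8.40 to 8.53, with no overlap. The 7 endothelial markers summed to 158 to 267 CPM in K14;Nogo-A and 273 to 293 CPM in wild-type, also with no overlap. The 7 markers of secretory ameloblasts summed to 34091 to 106780 CPM in K14;Nogo-A and 14717 to 43258 CPM in wild-type. No marker of these 4 lists was at 0 in every library. In RNA of a bulk tissue, fewer cells of a type and less RNA per cell cannot be told apart. The 4 Y-linked genes examined summed to 189 CPM in K14;Nogo-A replicate 1 and to 163 and 159 CPM in wild-type replicates 3 and 8, and to at most 0.309 CPM in the other 4 libraries.

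The highest member, Calb1, and one of the lowest, S100g, both belong to calcium-binding proteins of the EF-hand kind, in which a loop of 12 residues holds the ion. Calb1 encodes calbindin-D28k and S100g calbindin-D9k, proteins that buffer and ferry calcium in transporting epithelia. A search of their coding sequences in GENCODE M21 (GRCm38) for the canonical loop found 4 in Calb1 and 1 in S100g, and they are printed because these loops are what the 2 genes share. Each runs 5′ to 3′ over 36 bases, and the capitals mark the codons of its first and last residue, an aspartate and a glutamate that bind calcium.
Calb1 loop 1: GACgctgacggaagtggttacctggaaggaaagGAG
Calb1 loop 2: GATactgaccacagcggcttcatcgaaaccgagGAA
Calb1 loop 3: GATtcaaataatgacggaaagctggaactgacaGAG
Calb1 loop 4: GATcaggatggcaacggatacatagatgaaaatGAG
S100g loop: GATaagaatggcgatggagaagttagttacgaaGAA
The Calb1 loops lie on the plus strand at chr4:15881468-15881983 (residues 24 to 35, split between exons 1 and 2), chr4:15895644-15895679 (residues 111 to 122, exon 5), chr4:15900781-15900816 (residues 155 to 166, exon 7) and chr4:15901137-15904279 (residues 199 to 210, split between exons 9 and 10). The S100g loop lies on the minus strand in exon 3 at chrX:162962169-162962204 (residues 58 to 69). The S100g loop had the same base as Calb1 loop 4 at 21 of 36 positions and as the other Calb1 loops at 13 to 16. Among the Calb1 loops the number of shared bases was 15 to 22. Calb1 has 786 coding bases and S100g 240. The other loop of S100g, which is of the longer kind found in its family, has another pattern and is not shown.

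Levels were compared between genes as CPM per kilobase of exon. Calb1 was the highest member at 426 ± 18.1 (SD, n = 4) in K14;Nogo-A against 419 ± 126 (SD, n = 3) in wild-type libraries, which placed it at percentile 99.4 of the 14791 genes tested. Next came the ER genes, with Atp2a2 at 83.4 ± 12.7 in K14;Nogo-A, against 75.6 ± 8.08 in wild-type and Itpr3 at 59.8 ± 10.7 in K14;Nogo-A, against 50.4 ± 19.4 in wild-type. Trpm7 followed with 24.8 ± 4.59 in K14;Nogo-A, against 23.6 ± 5.24 in wild-type. Atp2b1 had 17.3 ± 2.23 in K14;Nogo-A, against 18.6 ± 4.86 in wild-type. The 2 genes of store-operated entry lay lower, Stim1 at 10.5 ± 1.79 in K14;Nogo-A, against 8.97 ± 0.817 in wild-type and Orai1 at 6.69 ± 0.603 in K14;Nogo-A, against 5.76 ± 0.826 in wild-type. In this order each of the 7 genes was above the next in 7 of 7 libraries, although the ranges over libraries overlapped between Atp2a2 and Itpr3 and between Trpm7 and Atp2b1.

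The exchanger genes were far below these. Slc24a4 had 0.171 ± 0.135 CPM per kilobase in K14;Nogo-A, against 0.0534 ± 0.0219 in wild-type, and Slc8a1 had 0.0837 ± 0.0372 in K14;Nogo-A, against 0.108 ± 0.0292 in wild-type. They stood at percentiles 3.94 and 2.57 of the genes tested, and Slc24a4 was above Slc8a1 in 3 of 7 libraries, so that their order was not separated. S100g had 1 count in K14;Nogo-A replicate 7 and 2 counts in wild-type replicate 3, and 0 in the other 5 libraries. At 0 counts up to 3 remain possible, which in these 5 libraries would be at most 0.30 CPM per kilobase, so S100g was not separated from the exchangers at this depth. This limit covers counting error only.

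**Figure D1:**
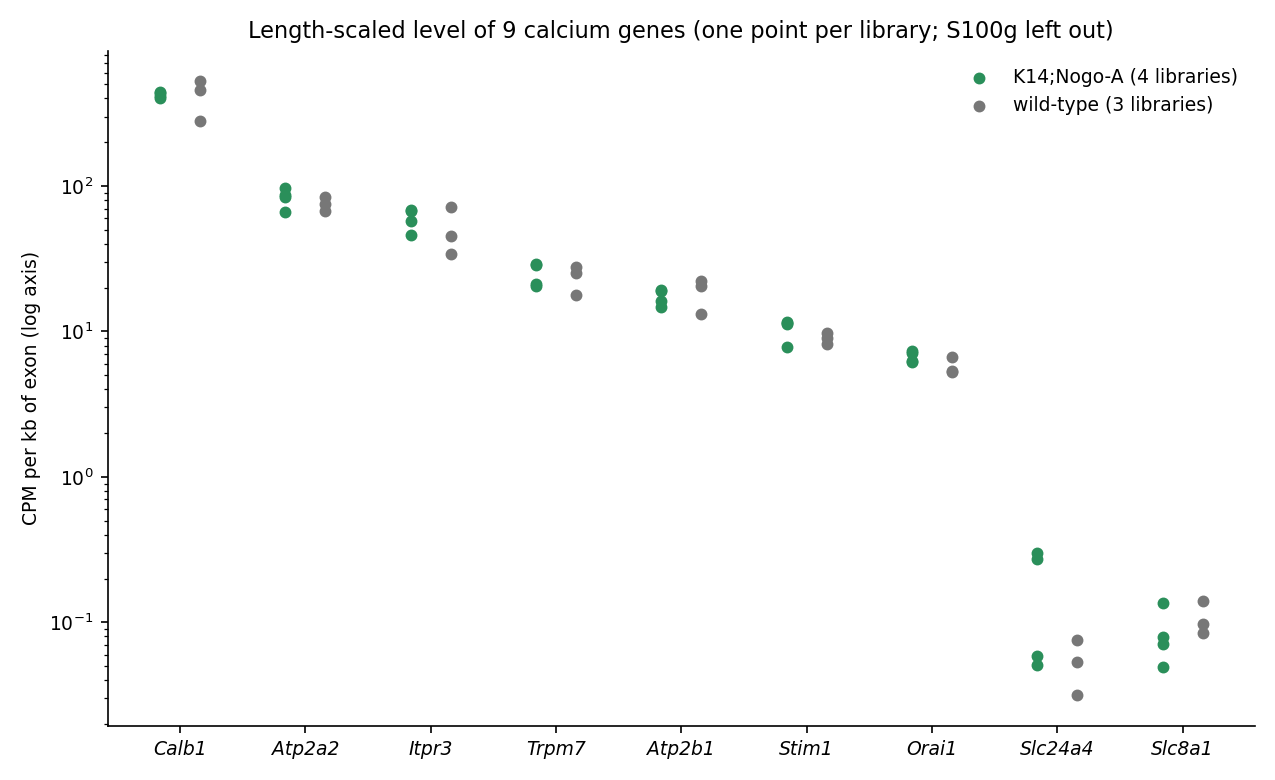
Level of 9 calcium genes as CPM per kilobase of exon (log axis), with 1 point per library, K14;Nogo-A (green, 4 libraries) left of wild-type (grey, 3 libraries). S100g, with counts of 0 to 2, is left out. Calb1 lies near 426 and 419, the genes from Atp2a2 to Orai1 form a descending row, and Slc24a4 and Slc8a1 lie far below.

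K14;Nogo-A was then compared with wild-type by edgeR's robust quasi-likelihood test over the 14791 genes that reached 10 counts in 50% or more of the pups of either genotype. Of the 10 members 9 were tested and S100g was not. At the study's thresholds, which ask for an unadjusted P no larger than 0.05 and for a log2 fold change of 0.5 or more in either direction, 1 member (Slc24a4) was higher in K14;Nogo-A and 0 were lower, where 2.02% of all genes tested were higher and 2.74% lower. At an unadjusted P of 0.05 or less with no limit on the fold, again 1 member was higher and 0 lower, against 6.25% and 6.66% of all genes. No member had an adjusted p under 0.05 (Benjamini-Hochberg over all genes, 0.0338% of genes called), and the count was also 0 of 9 with limma-voom and 0 of 7 with DESeq2, which gave no adjusted p for Slc24a4 and Slc8a1. Both genotypes' CPM overlapped for all 10 members, while 11.5% of the genes tested had no overlap. The log2 fold change was positive for 7 of the 9 and negative for 2, with a median of 0.14 beside -0.0069 over all genes tested. Exact permutation tests over the 35 ways of dividing the libraries, two-sided, gave p-values between 0.17 for Orai1 and 0.89 for Calb1, where the smallest possible is 0.029. Within the 3 libraries with Y-linked RNA the difference in mean log2 CPM, K14;Nogo-A minus wild-type, lay between -0.84 (Slc8a1) and 0.36 (Trpm7) for the 9 members, and within the 4 libraries without it between -0.60 (Slc8a1) and 1.47 (Slc24a4).

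**Figure D2:**
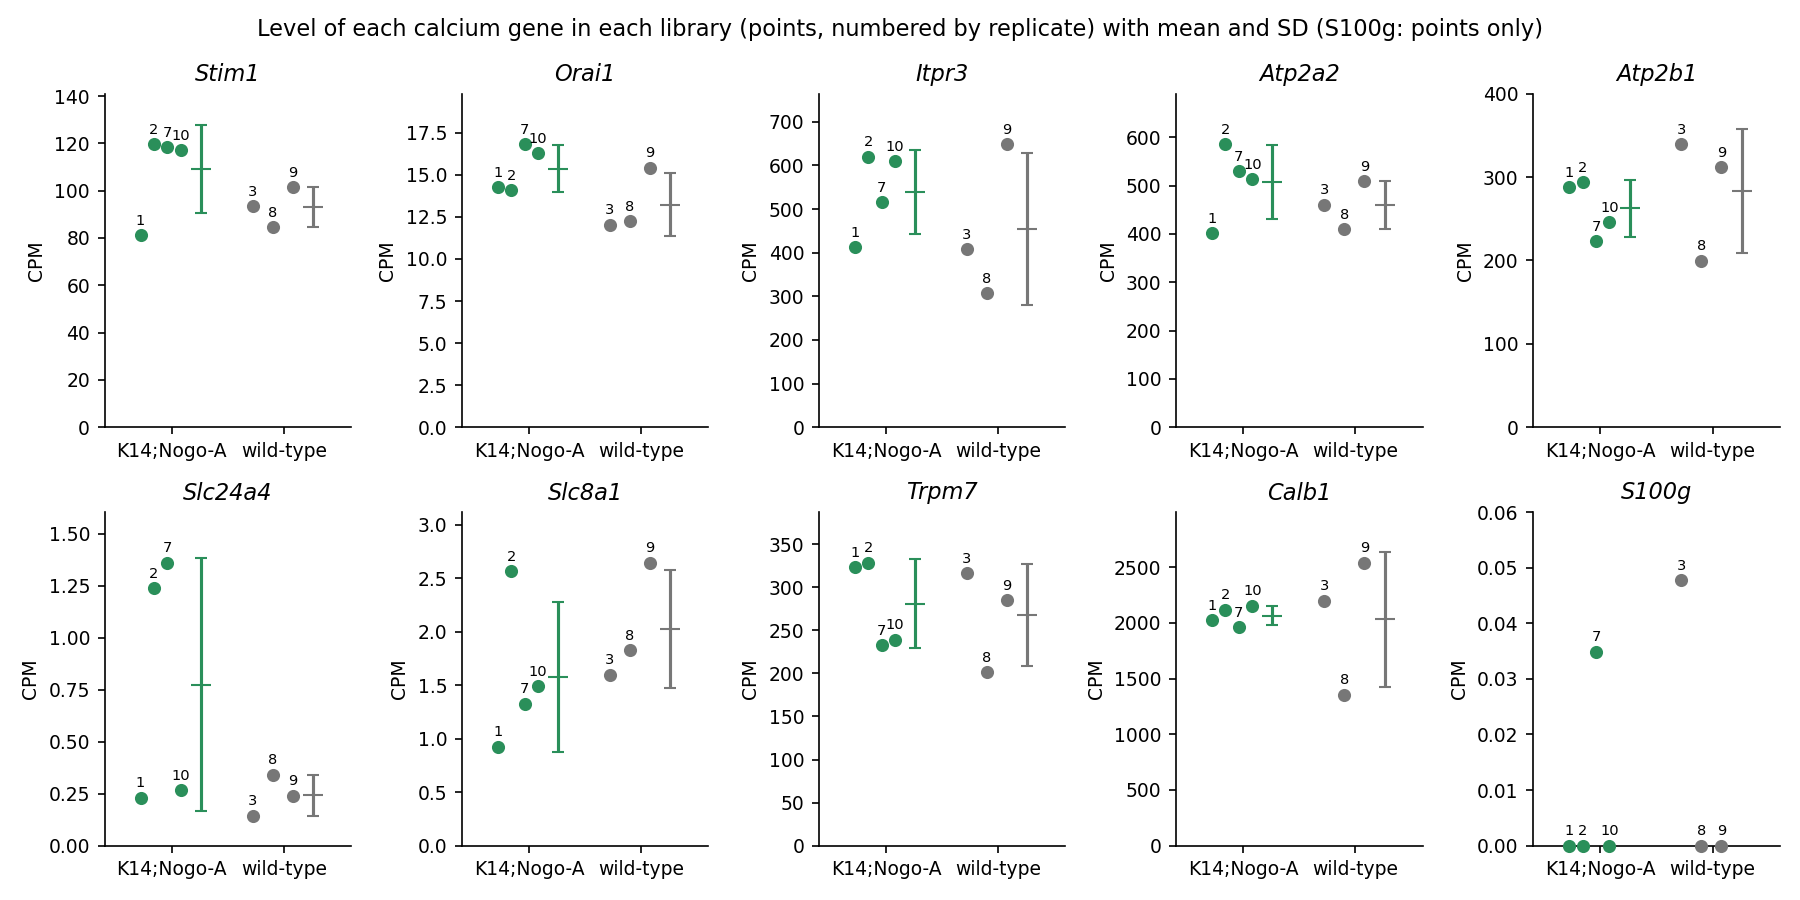
CPM of each member in each library (points, numbered by replicate), K14;Nogo-A (green) left of wild-type (grey), with the mean and SD beside the points except for S100g. Each axis starts at 0 and has its own scale. The genotypes overlap in all 10 panels, and Slc24a4 is high in replicates 2 and 7 of K14;Nogo-A only, at 1.24 and 1.36 CPM.

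Stim1 (ENSMUSG00000030987, chr7:102267806-102437319, plus strand) encodes the ER protein that senses a falling store and opens channels in the plasma membrane. It had 81.2, 119.6, 118 and 117 CPM in K14;Nogo-A replicates 1, 2, 7 and 10, against 93.3, 84.5 and 101 CPM in wild-type replicates 3, 8 and 9. Replicates 2, 7 and 10 of K14;Nogo-A were above every wild-type library and replicate 1 was the lowest of all 7. The means were 109 ± 18.6 CPM in K14;Nogo-A and 93.1 ± 8.47 CPM in wild-type, and the log2 fold change came to 0.23 (standard error, SE, 0.13, 95% interval -0.06 to 0.52, edgeR adjusted p = 0.49). Without replicate 1 the log2 fold change was 0.35 with an unadjusted P of 0.00315, below the fold limit of 0.5, and without any other single library it lay between 0.17 and 0.31. In that library Amelx, the gene of the main enamel matrix protein, had 26648 CPM, against 60391 to 72659 CPM in the other K14;Nogo-A libraries and 10444 to 33878 CPM in wild-type. The mesenchyme markers of replicate 1 summed to 33144 CPM, against 11149 to 19771 CPM in the other K14;Nogo-A libraries. The part of these differences in the level of Stim1 was not tested.

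Orai1 (ENSMUSG00000049686, chr5:123015074-123030456, plus strand) encodes the pore of the channel that Stim1 opens. It had 14.3, 14.1, 16.8 and 16.3 CPM in K14;Nogo-A and 12.05, 12.2 and 15.4 CPM in wild-type. All 4 K14;Nogo-A libraries exceeded wild-type replicates 3 and 8, and wild-type replicate 9 lay among them. This gave a log2 fold change of 0.22 (SE 0.13, 95% interval -0.07 to 0.52, edgeR adjusted p = 0.51). Without wild-type replicate 9 it was 0.35 with an unadjusted P of 0.0298, below the fold limit, and without wild-type replicate 3 it was 0.16. Orai1 held 25.4% of the RNA per kilobase of the 3 ORAI genes in K14;Nogo-A, against 24.8% in wild-type. Stim1 held 39.1% of that of the 2 STIM genes in K14;Nogo-A, against 36.2% in wild-type. By this measure a paralog was higher in both families. For STIM the order rests on the exon length used, which joins the exons of all transcripts. In CPM, without that scaling, Stim1 was above Stim2 in every library, with Stim2 means of 83.4 CPM in K14;Nogo-A and 81.7 CPM in wild-type. Stim2 had 16.3 ± 1.29 CPM per kilobase in K14;Nogo-A, against 15.9 ± 2.29 in wild-type. Orai2 had 10.5 ± 0.900 in K14;Nogo-A, against 9.21 ± 1.32 in wild-type, and Orai3 9.15 ± 0.968 in K14;Nogo-A, against 8.25 ± 1.28 in wild-type.

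Trpm7 (ENSMUSG00000027365, chr2:126791565-126876230, minus strand) encodes an ion channel fused to a protein kinase that passes magnesium, calcium and zinc. It had 323, 328, 233 and 239 CPM in K14;Nogo-A and 316, 202 and 285 CPM in wild-type. Replicates 1 and 2 of K14;Nogo-A and replicate 3 of wild-type had 316 CPM or more and the other libraries less, and the spread inside a genotype exceeded the difference between means, 281 ± 51.9 CPM in K14;Nogo-A and 268 ± 59.2 CPM in wild-type. Trpm7 thus had a log2 fold change of 0.07 (SE 0.17, 95% interval -0.31 to 0.45, edgeR adjusted p = 0.90). Its nearest relative Trpm6 was nearly silent, and Trpm7 held at least 99.8% of their joint level per kilobase in every library.

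Itpr3 (ENSMUSG00000042644, chr17:27057304-27122223, plus strand) encodes an IP3 receptor, which lets calcium out of the ER. It had 413, 620.1, 515 and 610.4 CPM in K14;Nogo-A and 408, 307 and 648 CPM in wild-type. The highest and the lowest library were both wild-type, replicates 9 and 8, and they differed 2.11-fold. The means were 539.6 ± 97.0 CPM in K14;Nogo-A and 454 ± 175 CPM in wild-type, with a log2 fold change of 0.25 (SE 0.24, 95% interval -0.30 to 0.79, edgeR adjusted p = 0.70). This value depended on single wild-type libraries. Without replicate 9 the log2 fold change was 0.61 with an unadjusted P of 0.00631, past the study's thresholds, and without replicate 8 it was 0.035 with an unadjusted P of 0.87. Itpr3 was the main IP3 receptor gene in both genotypes, with 90.7% of the family's level per kilobase in K14;Nogo-A, against 91.8% in wild-type. Itpr1 took most of the rest, at 108 ± 38.3 CPM in K14;Nogo-A and 71.9 ± 26.7 CPM in wild-type (log2 fold change 0.59, edgeR adjusted p = 0.56).

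Atp2a2 (ENSMUSG00000029467, chr5:122453513-122502225, minus strand) encodes the SERCA2 pump, which fills the ER store. It had 401, 585, 530.1 and 513 CPM in K14;Nogo-A and 460.4, 410.2 and 509 CPM in wild-type. As for Stim1, replicates 2, 7 and 10 of K14;Nogo-A were above every wild-type library and replicate 1 was below all of them. The 7 libraries in fact stood in the same order for both genes, a pattern noticed after the values were seen and given as a description of libraries that also differ in enamel and mesenchyme RNA. The 10 skeletal muscle markers followed a like pattern only in part and at low levels. They summed to 7.06 CPM in replicate 1 and 23.7 to 29.3 CPM in replicates 2, 7 and 10 of K14;Nogo-A. Wild-type libraries had 11.9 to 19.1 CPM, and replicate 9 was the lowest of them, though the highest for Stim1 and Atp2a2. Over the 7 libraries the correlation in log2 CPM with muscle markers was 0.70 for Stim1 and 0.58 for Atp2a2. With markers of secretory ameloblasts it was 0.93 and 0.90, and with epithelial markers 0.87 and 0.84. With maturation markers it was 0.55 and 0.51, and with mesenchyme markers -0.72 and -0.65. Muscle uses both Stim1 and Atp2a2, and the part of any of these marker lists in their levels was not tested. For both genes every library without Y-linked RNA stood above every library with it (K14;Nogo-A replicate 1, wild-type replicates 3 and 8). Itpr3 was split in the same way, and no other tested member was. How many of all genes tested were so split was not counted. Y-linked RNA was uneven between the genotypes, and a fit with it as covariate is given at the end. The means of Atp2a2 were 507 ± 77.3 CPM in K14;Nogo-A and 459.7 ± 49.2 CPM in wild-type. Its log2 fold change was 0.14 (SE 0.13, 95% interval -0.15 to 0.43, edgeR adjusted p = 0.68). Without replicate 1 it was 0.24 with an unadjusted P of 0.0499, while it was 0.067 with replicate 2 of K14;Nogo-A left out (unadjusted P 0.63) and 0.070 with replicate 8 of wild-type left out (unadjusted P 0.64). Atp2a2 held 99.6% of the level per kilobase of the 3 SERCA genes in K14;Nogo-A, against 99.6% in wild-type, and Atp2a1, the form of skeletal muscle, had at most 0.663 CPM in any library.

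**Figure D3:**
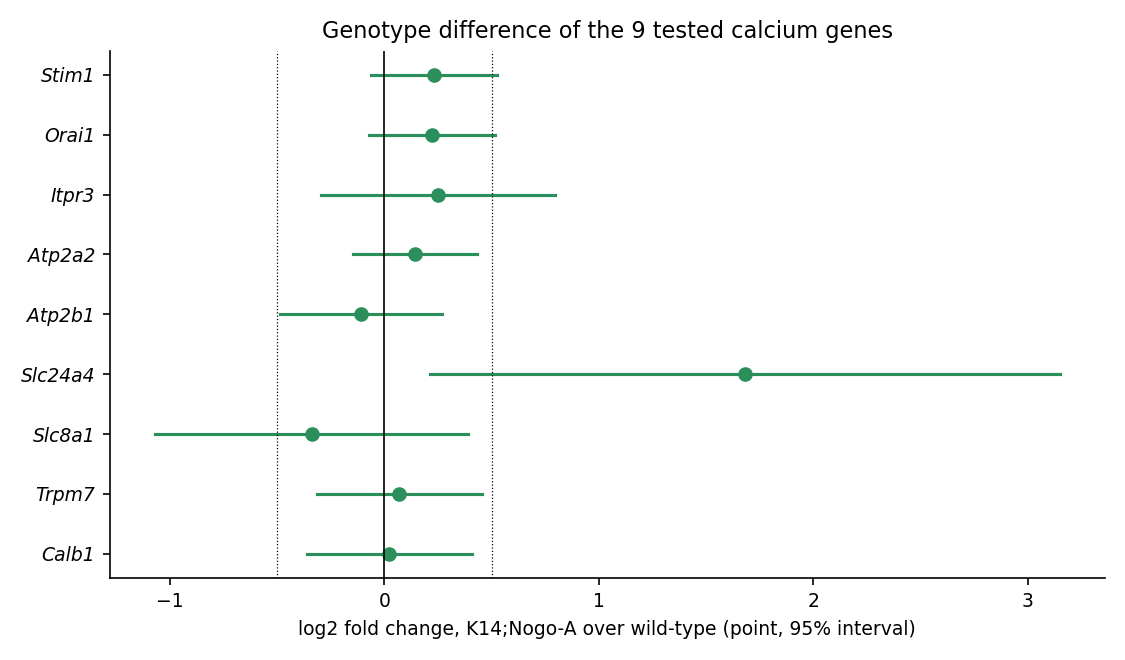
Log2 fold change of K14;Nogo-A over wild-type (points) with its 95% interval (lines) for the 9 tested members, from edgeR's quasi-likelihood fit. Dotted lines mark the fold limit of 0.5 in either direction. The intervals of 8 genes include 0, and that of Slc24a4 runs from 0.21 to 3.15.

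Atp2b1 (ENSMUSG00000019943, chr10:98914406-99026143, plus strand) encodes PMCA1, a pump that expels calcium through the plasma membrane. It had 288, 294, 223 and 246 CPM in K14;Nogo-A and 339, 199.6 and 312 CPM in wild-type. The 4 K14;Nogo-A libraries all fell between the lowest and the highest wild-type library. The means were 263 ± 34.0 CPM in K14;Nogo-A and 284 ± 74.0 CPM in wild-type, and the log2 fold change was -0.11 (SE 0.17, 95% interval -0.49 to 0.27, edgeR adjusted p = 0.82). Without wild-type replicate 8 it was -0.31 with an unadjusted P of 0.034, and without wild-type replicate 3 it was 0.041. Its share of the level per kilobase of the 4 PMCA genes was 54.7% in K14;Nogo-A, against 58.4% in wild-type. Nearly all of the rest was Atp2b4, with 13.9 ± 2.48 CPM per kilobase in K14;Nogo-A, against 12.8 ± 3.46 in wild-type.

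Slc24a4 (ENSMUSG00000041771, chr12:102128733-102267091, plus strand) encodes NCKX4, which exchanges sodium for calcium and potassium and is known from maturation-stage ameloblasts. It had 5, 28, 39 and 7 counts in K14;Nogo-A and 6, 14 and 5 counts in wild-type, or 0.231, 1.24, 1.36 and 0.267 CPM in K14;Nogo-A and 0.143, 0.341 and 0.240 CPM in wild-type. Replicates 2 and 7 of K14;Nogo-A stood apart, with 95% Poisson intervals of 0.822 to 1.79 and 0.967 to 1.86 CPM that lay above those of the other 5 libraries, of which the highest reached 0.572 CPM in wild-type replicate 8. Replicates 1 and 10 of K14;Nogo-A lay within the wild-type range. The log2 fold change was 1.68 (SE 0.67, 95% interval 0.21 to 3.15) with an unadjusted P of 0.0284, an edgeR adjusted p of 0.33 and an exact permutation p of 0.26. The gene passed the count filter only through K14;Nogo-A, where 2 of 4 libraries had at least 10 counts against 1 of 3 in wild-type, so its call is not independent of that filter. Without replicate 2 or without replicate 7 of K14;Nogo-A it did not pass the filter. Without wild-type replicate 3 or 9 it was no longer past the threshold of P, at log2 fold changes of 1.37 and 1.69.

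The same 2 libraries were the highest for Klk4, a protease of the maturation stage, with 1.85, 5.39, 7.67 and 1.95 CPM in K14;Nogo-A and 2.34, 1.34 and 1.54 CPM in wild-type. The 9 maturation markers together summed to 283 and 286 CPM in replicates 2 and 7 of K14;Nogo-A, to 187 and 189.9 CPM in replicates 1 and 10, and to 176 to 183 CPM in wild-type. Of 8 such markers tested 4 had positive and 4 negative log2 fold changes, with a median of 0.08, and 1 (Klk4) passed the study's thresholds. No marker of that list was at 0 in every library. The mesenchyme markers were lowest in the same 2 libraries, at 11149 and 12368 CPM. Over all libraries the correlation of Slc24a4 in log2 CPM was 0.87 with maturation markers and -0.77 with mesenchyme markers. With secretory ameloblast markers it was 0.64, with epithelial markers 0.54 and with muscle markers 0.50. The part of these shifts in the level of Slc24a4 was not tested.

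Slc8a1 (ENSMUSG00000054640, chr17:81373105-81738377, minus strand) encodes NCX1, the sodium-calcium exchanger of heart muscle. It had 20, 58, 38 and 39 counts in K14;Nogo-A and 67, 75 and 55 counts in wild-type, or 0.923, 2.56, 1.33 and 1.49 CPM in K14;Nogo-A and 1.60, 1.83 and 2.64 CPM in wild-type. Replicates 1, 7 and 10 of K14;Nogo-A were below every wild-type library and replicate 2 was within their range. For Slc8a1 the log2 fold change was -0.34 (SE 0.33, 95% interval -1.07 to 0.39, edgeR adjusted p = 0.70). Without K14;Nogo-A replicate 2 it was -0.67 with an unadjusted P of 0.056, and without wild-type replicate 9 it was -0.11. Counts this low leave a 95% Poisson interval of 0.564 to 1.43 CPM for K14;Nogo-A replicate 1.

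Both exchanger members were minor forms of their families. Slc8a1 held 1.52% of the level per kilobase of the 3 NCX genes in K14;Nogo-A, against 1.15% in wild-type, and Slc24a4 held 1.07% of that of the 5 NCKX genes in K14;Nogo-A, against 0.868% in wild-type. The main forms were Slc8a3 (NCX3), with 72.1% in K14;Nogo-A, against 78.7% in wild-type, and Slc24a3 (NCKX3), with 94.3% in K14;Nogo-A, against 90.9% in wild-type. These 2 were singled out after their values were seen. Slc24a3 had 34.1, 90.8, 65.4 and 68.7 CPM in K14;Nogo-A and 39.8, 17.3 and 39.2 CPM in wild-type. Replicates 2, 7 and 10 of K14;Nogo-A were above all wild-type libraries and replicate 1 was not (log2 fold change 1.02, unadjusted P 0.0510, edgeR adjusted p = 0.39). Slc8a3 had 42.5, 15.6, 17.8 and 23.9 CPM in K14;Nogo-A and 52.2, 35.5 and 35.1 CPM in wild-type. Here replicate 1 alone of K14;Nogo-A reached the wild-type range (log2 fold change -0.72, edgeR adjusted p = 0.45).

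Calb1 (ENSMUSG00000028222, chr4:15881264-15908064, plus strand), whose 4 loops are printed above, had 2022, 2117, 1963 and 2154 CPM in K14;Nogo-A and 2199, 1356 and 2537 CPM in wild-type. The K14;Nogo-A libraries lay close together, with an SD of 87.6 CPM around 2064 CPM, and the wild-type libraries spread around them with an SD of 608 CPM around 2031 CPM. Wild-type replicate 8 was the lowest of the 7 libraries for Calb1, and also for Itpr3, Atp2b1 and Trpm7. The log2 fold change was 0.02 (SE 0.18, 95% interval -0.36 to 0.41, edgeR adjusted p = 0.97). The fold interval of 0.777 to 1.33 is what these libraries allow, and the missed threshold does not show equal levels. In every library Calb1 held at least 99.9% of the level per kilobase summed over Calb1, Calb2, S100g, Pvalb and Ocm, the small EF-hand buffers examined.

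S100g (ENSMUSG00000040808, chrX:162961992-162964599, minus strand), the gene of the single canonical loop printed above, was not tested for lack of counts. Its gene model is 480 bases long, the shortest of the members. The counts of 0, 0, 1 and 0 in K14;Nogo-A and of 2, 0 and 0 in wild-type allow no fold.

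The other genes of calcium handling were taken as 10 lists with 118 genes, members included, of which 101 were tested. Among these 50 log2 fold changes were positive and 51 negative, with a median of -0.02, while 48.5% of all genes tested were positive. At the study's thresholds 1 was higher (Slc24a4) and 2 were lower in K14;Nogo-A, and at an unadjusted P of 0.05 or less 7 were higher and 10 lower, beside 6.25% and 6.66% of all genes tested. None had an adjusted p under 0.05 in edgeR's quasi-likelihood test. Those past the study's thresholds made up 0.990% higher and 1.98% lower, beside the 2.02% and 2.74% of all genes tested.

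Of the lower genes, Itpr2 encodes the IP3 receptor that was least abundant here. It had 4.29, 5.26, 5.55 and 4.54 CPM in K14;Nogo-A and 7.49, 7.74 and 7.49 CPM in wild-type, and every K14;Nogo-A library was below every wild-type library. Itpr2 had a log2 fold change of -0.62 (SE 0.16, unadjusted P 0.00203, edgeR adjusted p = 0.20). Cacnb2 encodes an auxiliary subunit of voltage-gated calcium channels and had 4.94, 7.03, 5.37 and 7.02 CPM in K14;Nogo-A and 7.87, 13.4 and 5.81 CPM in wild-type. Its genotypes overlapped, and wild-type replicate 8 was well above the rest (log2 fold change -0.58, unadjusted P 0.0474, edgeR adjusted p = 0.38). The mesenchyme and endothelial markers given above were also lower in K14;Nogo-A. Within that genotype the mesenchyme sum was 33144 CPM in replicate 1 and 11149 to 19771 CPM in the others. The endothelial sum ran from 158 CPM in replicate 1 to 267 CPM in replicate 7. Replicate 1 also had the lowest Itpr2 and Cacnb2 of that genotype. The part of either marker list in the levels of these 2 genes was not tested, and the order of so few libraries cannot decide it.

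By list, 8 of 9 genes of store-operated entry had positive log2 fold changes, with a median of 0.20, and 0 passed the study's thresholds. Among them Saraf, whose protein slows store-operated entry, was singled out after its value was seen, with 223 ± 23.1 CPM in K14;Nogo-A and 177 ± 26.1 CPM in wild-type (log2 fold change 0.33, edgeR adjusted p = 0.29). Epithelial markers were positive for 9 of 10 (median 0.19) and secretory ameloblast markers for 7 of 7 (median 0.99). Their part in the values of the store-operated entry genes was not tested. Of 12 calcium-binding proteins of the ER and Golgi, such as calreticulin and calnexin, 11 had negative values, with a median of -0.16, and 0 passed the study's thresholds. Markers of some other cell types were also negative, with 14 of 14 for mesenchyme (median -0.49) and 9 of 9 for odontoblasts and osteoblasts. So were 7 of 7 for endothelium, 7 of 7 for immune cells and 5 of 5 for erythroid cells, and 4 of 6 for Schwann cells and neurons. Those of skeletal muscle (8 of 8, median 0.22) and of oral keratinocytes (6 of 6, median 0.24) were positive instead. The part of any marker list in the values of these calcium-binding proteins was not tested. Of the ER release channels 4 of 8 were positive (median -0.0078), and of the ER and Golgi pumps 4 of 5 (median 0.14). Of the plasma membrane pumps and their partner proteins 4 of 6 were positive (median 0.09) and of the sodium-calcium exchangers 5 of 8 (median 0.17). The TRP channels were divided 10 to 9 (median 0.04) and the cytosolic buffers 3 to 3 (median -0.04). Of the voltage-gated channels 6 of 17 were positive (median -0.02), and of the mitochondrial uptake genes 5 of 11 (median -0.03). These counts describe the lists, and no test was made of them.

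**Figure D4:**
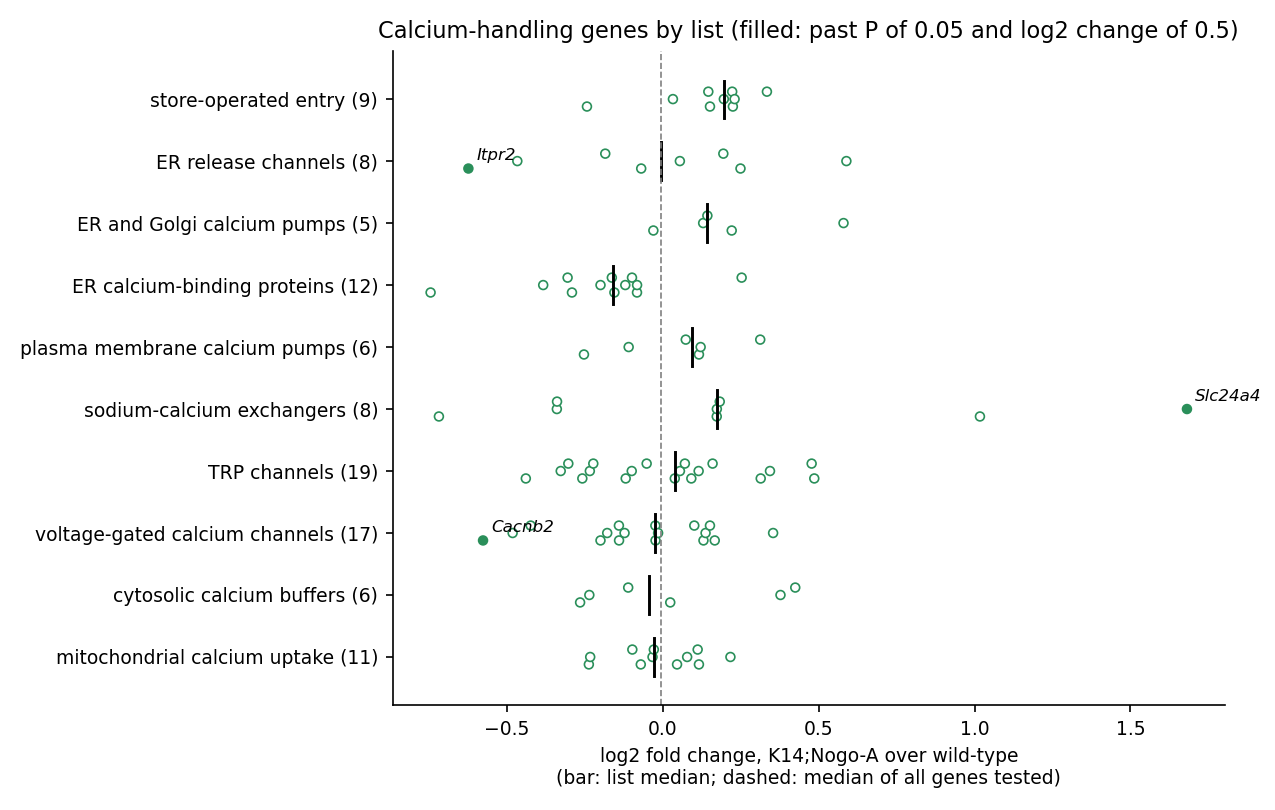
Log2 fold change of K14;Nogo-A over wild-type for 101 genes in 10 calcium-handling lists (points; number tested in brackets), with the median of each list (bar) and of all genes tested (dashed line, -0.0069). Filled points passed an unadjusted P of 0.05 and the fold limit of 0.5 on the log2 scale. These are Slc24a4 at 1.68, Itpr2 at -0.62 and Cacnb2 at -0.58.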

How the data were processed

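RNA of dental epithelium from 7 PN0 pups was analysed, each library being 1 pup. The files deposited by the authors hold unnormalized counts for each Ensembl gene. They were made with bcl2fastq 2.19, STAR 2.7.1 on GRCm38 with Ensembl release 91, and featureCounts. A stranded TruSeq kit is named in the labels, but how featureCounts treated strand is not stated there. Reads of antisense genes therefore cannot be set apart, though antisense overlap with member exons was at most 296 bases. Symbols and exon lengths are from GENCODE M21 (25664 of 25700 IDs matched, and the others held 0.0348% of counts).

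Analyses used edgeR 4.0.16, limma 3.58.1 and DESeq2 1.42.0 in R 4.3.3. Only the edgeR quasi-likelihood test was tried on simulated counts. Genes reaching 10 counts in 50% or more of either genotype's libraries were tested by the robust quasi-likelihood test with TMM factors and no covariate. Log2 CPM used a prior count of 2. The text names all members, and other listed genes past the study's thresholds or an adjusted p of 0.05, up to 4 a list. Members and lists were chosen with earlier results of these data known. Alternatives were other factors, tests, filters and thresholds, left-out libraries, and mesenchyme or Y-linked RNA as a covariate. The split by Y-linked RNA was added after the data were seen. A further wild-type pup was not analysed here. Among the 9 pairs of libraries within a genotype none agreed within sampling noise, the smallest chi-square per degree of freedom being 16.6.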

Additional observations from a re-analysis of the deposited data

Results flagged for a closer look

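Stim1 in the K14;Nogo-A libraries had 1 sample far from the others. Replicate 1 had 81.2 CPM and the other 3 had 117 to 119.6 CPM, and the gap was 0.935 of the group's range. S100g in the same libraries had a gap of 1 times its range, which rests on the 1 count of replicate 7. Of 19 genes examined in this way 2 stood out. The nominal rate of about 1 in 20 cannot be set beside this count. A lone count among zeros forces a gap of 1, some genes were picked after their values were seen, and all share the same libraries.

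The genotype difference was also compared between the libraries with Y-linked RNA (K14;Nogo-A replicate 1, wild-type replicates 3 and 8) and those without it (K14;Nogo-A replicates 2, 7 and 10, wild-type replicate 9), classes defined from the data because the labels give no sex. For 3 members every library of 1 class differed one way and every library of the other class the opposite way. How many of all genes tested show such a split was not counted, so it is not a result about the members. For Stim1 the mean log2 CPM of K14;Nogo-A minus wild-type was -0.13 with Y-linked RNA and 0.22 without, and the interaction in the edgeR fit was 0.35 (unadjusted P 0.0658, edgeR adjusted p = 0.62). For Atp2a2 the differences were -0.12 and 0.09, with an interaction of 0.21 (edgeR adjusted p = 0.84). Itpr3 ran the other way, with 0.22 and -0.16 and an interaction of -0.36 (edgeR adjusted p = 0.74). None of the 3 interactions passed the threshold, and each class holds 1 library of a genotype.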

How the results depend on the processing

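No member had an adjusted p under 0.05 in any alternative that gave one, and DESeq2 gave none for Slc24a4 and Slc8a1. The count of members higher at the study's thresholds, 1 in the fit reported, was 0 with limma-voom, with edgeR's filterByExpr, and with the mesenchyme markers or the Y-linked genes as covariate, and 0 to 1 with a library left out. The count lower was 0, but 2 with the mesenchyme covariate. That covariate does not overlap between the genotypes, so the fit has little left to separate them. For this reason it is no test of the part of mesenchyme RNA in the level of any member. It turned Stim1 to -0.57, Itpr3 to -0.81, Atp2a2 to -0.66, Slc24a4 to -2.66 and Calb1 to -0.26 (log2 fold changes) and moved Slc8a1 to -2.49. With the Y-linked covariate Calb1 was -0.059, Stim1 0.063, Itpr3 0.031, Atp2a2 0.0024, Orai1 0.13, Trpm7 0.10, Atp2b1 -0.11 and Slc8a1 -0.67. Slc24a4 was 1.04 with that covariate and 1.33 with limma-voom, both no longer past the thresholds. With a library left out, Stim1 ran from 0.17 to 0.35, Orai1 from 0.16 to 0.35, Itpr3 from 0.035 to 0.61, Atp2a2 from 0.067 to 0.24, Slc8a1 from -0.67 to -0.11, Atp2b1 from -0.31 to 0.041, Trpm7 from -0.094 to 0.21 and Calb1 from -0.20 to 0.23. Of 141 single-gene values under alternatives 124 kept direction and side of the threshold. Slc24a4 could not be fitted under filterByExpr or without replicate 2 or 7 of K14;Nogo-A.

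Over all genes 5 had an adjusted p under 0.05 in the fit reported, against 166 with the likelihood-ratio test, 317 with DESeq2, 4 with limma-voom, 21 with no filter on low counts, 2 with the mesenchyme covariate, 9 with the Y-linked covariate and 0 to 221 with a library left out. At the study's thresholds 705 genes passed in the fit reported and 386 (without wild-type replicate 8) to 1076 (without wild-type replicate 9) with a library left out. No paired analysis was possible because the genotypes share no replicate number. Depth limits Slc24a4, Slc8a1 and S100g most.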
